A study of Homo sapiens with 6 samples.

Results

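The nuclear-encoded subunits of the mitochondrial respiratory chain and the ATP synthase were followed across 6 RNA sequencing libraries of CAL27, an established line labelled as oral adenosquamous carcinoma. Members were taken by symbol from the protein-coding genes: symbols starting NDUFA, NDUFB, NDUFC, NDUFS, NDUFV, UQCR, COX4I, COX5, COX6, COX7, COX8 or ATP5, with SDHA, SDHB, SDHC, SDHD and CYC1, and without assembly factors starting NDUFAF or the inhibitor ATP5IF1. This gave 84 of the 30178 genes in the deposited table, 37 in complex I, 4 in complex II, 10 in complex III, 15 in complex IV and 18 in complex V. NDUFA4 and NDUFA4L2 were placed with complex IV, of which NDUFA4 is a subunit. COX4I2, COX6A2, COX7B2 and COX8C were not among the 84 members found and so were not analysed here.

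The study compared stable lines carrying MB21D2 with the Q311E substitution, wild-type MB21D2 or an empty vector, with 2 libraries (A and B) in each group. MB21D2 belongs to the Mab-21 domain family, as does the DNA sensor cGAS, and Q311E puts a glutamate in place of a glutamine. Per the labels, the proteins were fused to GFP and all lines, the vector line included, grew in DMEM with serum and antibiotics under G418. The labels name no clone for any line. Nothing in them makes A and B separate cultures, and the p-values therefore rest on a spread between libraries that may be technical.

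The respiratory chain passes electrons from NADH (complex I) or succinate (complex II) through complex III and cytochrome c to complex IV, where oxygen is reduced. Complexes I, III and IV pump protons across the inner mitochondrial membrane, and complex V, the ATP synthase, uses that gradient to make ATP. Most subunits are encoded in the nucleus and imported, while the mitochondrial genome encodes a few hydrophobic ones. The transcription factors NRF1, GABPA (an ETS factor, also called NRF2) and YY1 are known to bind promoters of many of the nuclear genes.

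The promoters of 4 members are shown because UQCR11 and COX8A had the lowest fold changes of complexes III and IV, SDHA was the 1 member called higher in any comparison, and ATP5F1C, the central shaft of the ATP synthase, was not called in any. Each line gives the 200 bases before the RefSeq start (GRCh38.p14), read 5′ to 3′ on the gene's strand: chr19:1605463-1605662 on the minus strand for UQCR11, chr11:63974420-63974619 on the plus strand for COX8A, chr5:218120-218319 on the plus strand for SDHA and chr10:7787977-7788176 on the plus strand for ATP5F1C. Capitals mark matches on either strand to the NRF1 motif (GCGCA, then any base, then GCGC) or the GABPA motif CCGGAAG, and no marked match overlaps another.
UQCR11: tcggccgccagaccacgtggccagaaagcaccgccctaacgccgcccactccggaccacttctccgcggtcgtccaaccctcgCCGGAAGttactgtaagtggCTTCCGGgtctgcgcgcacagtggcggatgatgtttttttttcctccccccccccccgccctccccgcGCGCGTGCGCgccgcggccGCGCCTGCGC
COX8A: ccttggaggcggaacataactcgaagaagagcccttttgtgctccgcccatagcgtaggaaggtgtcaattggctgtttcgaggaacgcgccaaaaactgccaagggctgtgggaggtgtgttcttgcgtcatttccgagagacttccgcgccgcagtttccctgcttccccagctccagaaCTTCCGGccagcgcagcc
SDHA: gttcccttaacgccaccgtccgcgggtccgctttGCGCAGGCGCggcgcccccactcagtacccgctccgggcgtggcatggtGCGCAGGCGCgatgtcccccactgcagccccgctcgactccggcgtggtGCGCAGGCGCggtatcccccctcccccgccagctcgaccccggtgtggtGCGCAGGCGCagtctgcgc
ATP5F1C: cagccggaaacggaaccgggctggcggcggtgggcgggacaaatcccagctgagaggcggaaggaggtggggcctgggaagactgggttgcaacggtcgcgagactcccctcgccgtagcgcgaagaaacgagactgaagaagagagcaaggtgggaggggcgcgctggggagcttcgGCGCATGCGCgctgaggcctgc

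UQCR11 carried 2 GABPA matches, first bases 117 and 97 bases before the start, and 2 NRF1 matches at 29 and 10 bases. SDHA carried 4 identical NRF1 matches at 166, 117, 68 and 19 bases, COX8A 1 GABPA match at 18 bases and ATP5F1C 1 NRF1 match at 22 bases. Promoters were found for 66 of the 84 members, and the windows searched ran from 250 bases before to 50 after the start. The NRF1 motif was in 24.2% of the members' windows, against 12.7% of those of 8432 tested protein-coding genes. The GABPA motif was in 30.3%, against 21.2%, and the YY1 motif AAGATGGC, also sought on both strands, in 16.7%, against 6.0%. At least 1 of the 3 motifs was in 57.6% of members, against 34.7% of the tested protein-coding genes. Among the 23 members with a promoter that were called lower in either MB21D2 line the shares were 30.4% (NRF1), 39.1% (GABPA) and 21.7% (YY1), against 23.1%, 25.6% and 12.8% of the 39 tested members called in neither. These are matches of letters and say nothing of binding in these cells.

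Library totals recovered from the deposited values ran from 20645410 to 24147306 reads. MB21D2 had 32.8 and 21.2 FPKM in Q311E, 104 and 106 FPKM in wild type and 8.31 and 7.15 FPKM in vector libraries (FPKM scales reads by gene length and sequencing depth), so the Q311E line differed from the wild-type line in the level of MB21D2 as well as in its form. The label of an epithelial carcinoma line was checked on 10 epithelial and squamous markers. EPCAM, CDH1, KRT5, KRT8, KRT17, KRT18, TP63 and SFN were above 10 FPKM in every library, and the 10 summed to 1991 and 1704 FPKM in Q311E and 1756 and 1788 FPKM in wild type, against 2536 and 2461 FPKM in vector libraries. With Q311E against vector 1 of the 10 rose (KRT17) and 2 fell (KRT6A and KRT14), and with wild type against vector 0 rose and 4 fell (KRT6A, KRT14, KRT17 and TP63). KRT8 went the other way with wild type, at 404 and 415 FPKM against 254 and 251 FPKM in vector libraries, but was not called. The same held for KRT18, at 347 and 356 FPKM against 192 and 206 FPKM. KRT6A had 16.7 and 15 FPKM in Q311E and 7.90 and 9.49 FPKM in wild type, against 109 and 104 FPKM in vector libraries, and KRT14 had 0.771 and 0.902 FPKM in Q311E and 2.08 and 2.35 FPKM in wild type, against 762 and 697 FPKM in vector libraries. The 7 fibroblast markers summed to 3.84 and 3.08 FPKM in Q311E, 2.77 and 2.50 FPKM in wild type and 2.96 and 3.59 FPKM in vector libraries, with DCN, PDGFRA and COL3A1 at most 0.114 FPKM and COL1A1 between 0.984 and 1.85 FPKM. COL1A2, with 1.53 and 1.64 FPKM in Q311E, 0.660 and 0.685 FPKM in wild type and 0.865 and 0.916 FPKM in vector libraries, was higher in Q311E than in the vector (0.45, adjusted p = 0.0394) and in wild type (0.63, adjusted p = 0.0153). The 4 leukocyte markers with values summed to 4.93 and 18.9 FPKM, 2.40 and 2.58 FPKM and 1.83 and 3.24 FPKM in the same order of groups, nearly all of it the monocyte marker CD14, with PTPRC, CD3E and CD68 at most 0.0448 FPKM. The 3 endothelial markers summed to 22.7 and 35.6 FPKM, 15.9 and 15.5 FPKM and 20.1 and 21.5 FPKM, with CDH5 between 15.4 and 35.2 FPKM and higher in Q311E than in wild type (0.81, adjusted p = 0.0376), and with PECAM1 and VWF at most 0.317 FPKM. The part of these differences in the results was not tested. The 2 Q311E libraries stood further apart than those of the other groups: the SD of the log2 difference between A and B over all tested genes was 0.436 for Q311E, 0.145 for wild type and 0.192 for vector.

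Of the 84 members, 77 passed the filter of a mean of at least 1 FPKM over the 6 libraries and entered the test, a limma fit of log2(FPKM + 1) over 11481 genes with a gene called at an adjusted p under 0.05. Fold changes are log2 differences on that scale, with SE, and understate changes of low genes. Of the members not tested, NDUFA7 had 0.532 and 0.851 FPKM in Q311E, 0.372 and 0.398 FPKM in wild type and 0.2345 and 0.206 FPKM in vector libraries. NDUFA13 had 0.902 and 0.837 FPKM, 0.599 and 0.797 FPKM, and 0.765 and 0.823 FPKM in the same order of groups. ATP5MF-PTCD1, counted in complex V, had at most 0.0162 FPKM. It shares 88.3% of its exon bases with other genes on the same strand. The summed level of all 84 members was 3764 and 4505 FPKM in Q311E and 4155 and 4262 FPKM in wild type, against 5387 and 5850 FPKM in vector libraries, without overlap between either MB21D2 line and the vector. All 5 complexes gave lower sums in both MB21D2 lines than in either vector library. For complex IV the sums were 940.5 and 1264 FPKM in Q311E and 957 and 991 FPKM in wild type, against 1546 and 1749 FPKM in vector libraries. For complex V they were 922 and 1072 FPKM, 1163 and 1184 FPKM, and 1362 and 1415 FPKM in the same order of groups. A single gene, COX8A, weighed heavily in the complex IV sums. It had 305.5 and 444 FPKM in Q311E and 316 and 326.5 FPKM in wild type, against 759 and 850 FPKM in vector libraries. The median log2 fold change of the 12 tested complex IV members was -0.20 for Q311E and -0.34 for wild type, each against vector. In bulk RNA, a smaller share of cells that express a gene and less RNA per cell cannot be told apart.

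**Figure D1:**
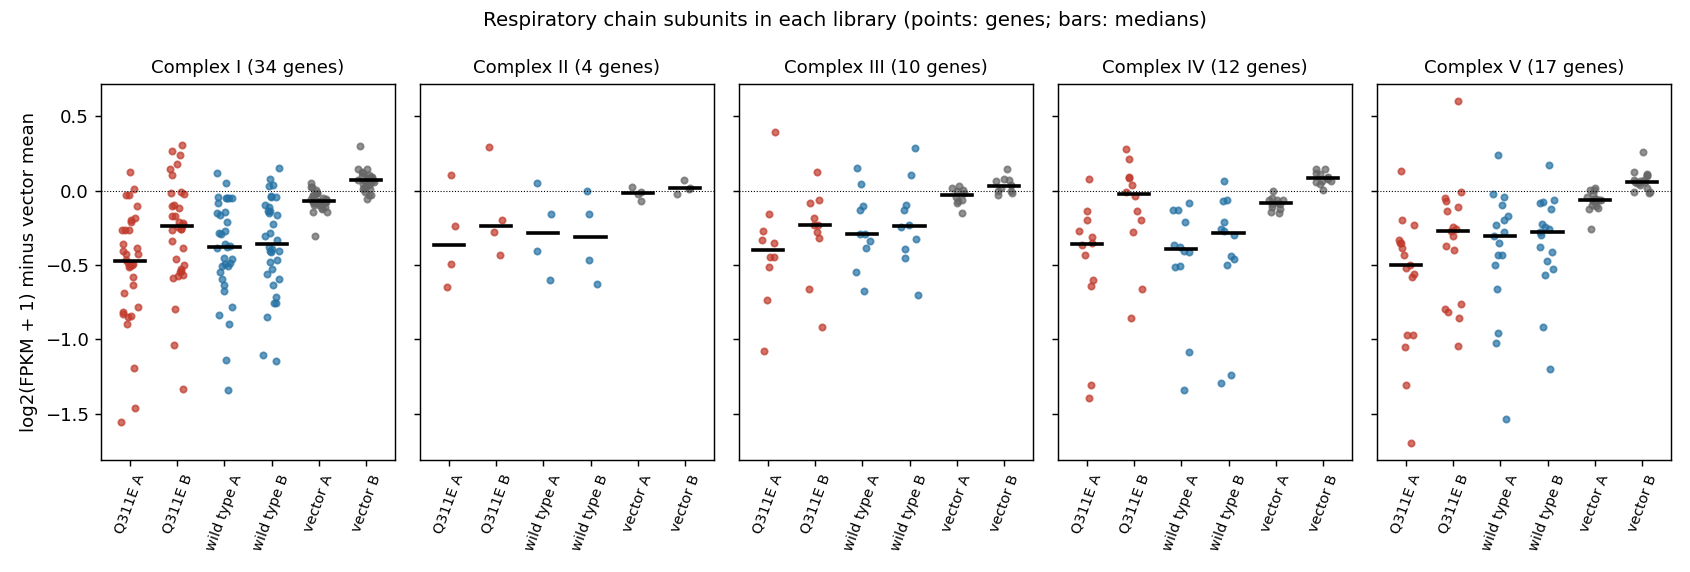
Each point is 1 tested member in 1 library, on the y axis as log2(FPKM + 1) minus its mean over the vector libraries, with the 6 libraries on the x axis and 1 panel per complex; bars are medians. The medians lie below 0 in all 4 libraries of the MB21D2 lines in every panel, from -0.50 (complex V, Q311E A) to -0.02 (complex IV, Q311E B).

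In Q311E against vector, 26 of the 77 tested members fell and 0 rose, that is 33.8% lower against 9.28% of all genes tested and 0.0% higher against 8.67%. The median log2 fold change of the members was -0.30, against 0.00 over all genes, with a range of -1.45 to 0.37. By complex, 12 of 34 tested members fell in complex I, 1 of 4 in complex II, 3 of 10 in complex III, 2 of 12 in complex IV and 8 of 17 in complex V. The libraries of the 2 groups did not overlap for 55 members with Q311E lower (30% of all genes tested) and 4 with Q311E higher (30.1%). At an unadjusted p under 0.05, 47 members were lower and 0 higher. Counts at an unadjusted p, here and below, were not made over all genes and so have no background share. The voom fit on recovered reads called 24 lower and 0 higher (31.2% lower, against 9.44% of all genes). The count of falls depended on the libraries in the fit. It was 34 without Q311E A (44.2%, against 26.2% of all genes), 58 without Q311E B (75.3%, against 19% of all genes) and 2 without either wild-type library (2.6%, against 1.09% of all genes). It was 0 in the limma fit without either vector library, with 0.0174% of all genes lower, where 37 (without vector A) and 24 (without vector B) members were lower at an unadjusted p under 0.05. The median of the members stayed between -0.44 and -0.23 over these fits.

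In wild type against vector, 18 members fell and 0 rose, 23.4% lower against 8.76% of all genes tested and 0.0% higher against 3.54%. Their median was -0.31, against -0.05 over all genes, with a range of -1.37 to 0.22. The falls were 9 in complex I, 1 in complex II, 2 in complex III, 2 in complex IV and 4 in complex V. Libraries did not overlap for 63 members with wild type lower (44.9% of all genes tested) and for 5 with wild type higher (32.1%). At an unadjusted p under 0.05, 39 members were lower and 0 higher. With voom 13 were called lower and 0 higher (16.9% lower, against 6.52% of all genes). With Q311E A left out 50 members fell (64.9%) and with Q311E B left out 49 (63.6%), against 28.4% of all genes in both fits. Without any 1 of the vector or wild-type libraries the limma count was 0, against 0.0436% to 0.0697% of all genes lower, with 19 to 32 members lower at an unadjusted p under 0.05. The median stayed between -0.39 and -0.25.

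Both comparisons use the same vector libraries. Of the 26 members that fell with Q311E and the 18 that fell with wild type, 14 were in both lists, which is 53.8% of the first and 77.8% of the second, and 47 tested members were called in neither. The same overlap was not counted over all genes, so these shares have no background to be read against.

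**Figure D2:**
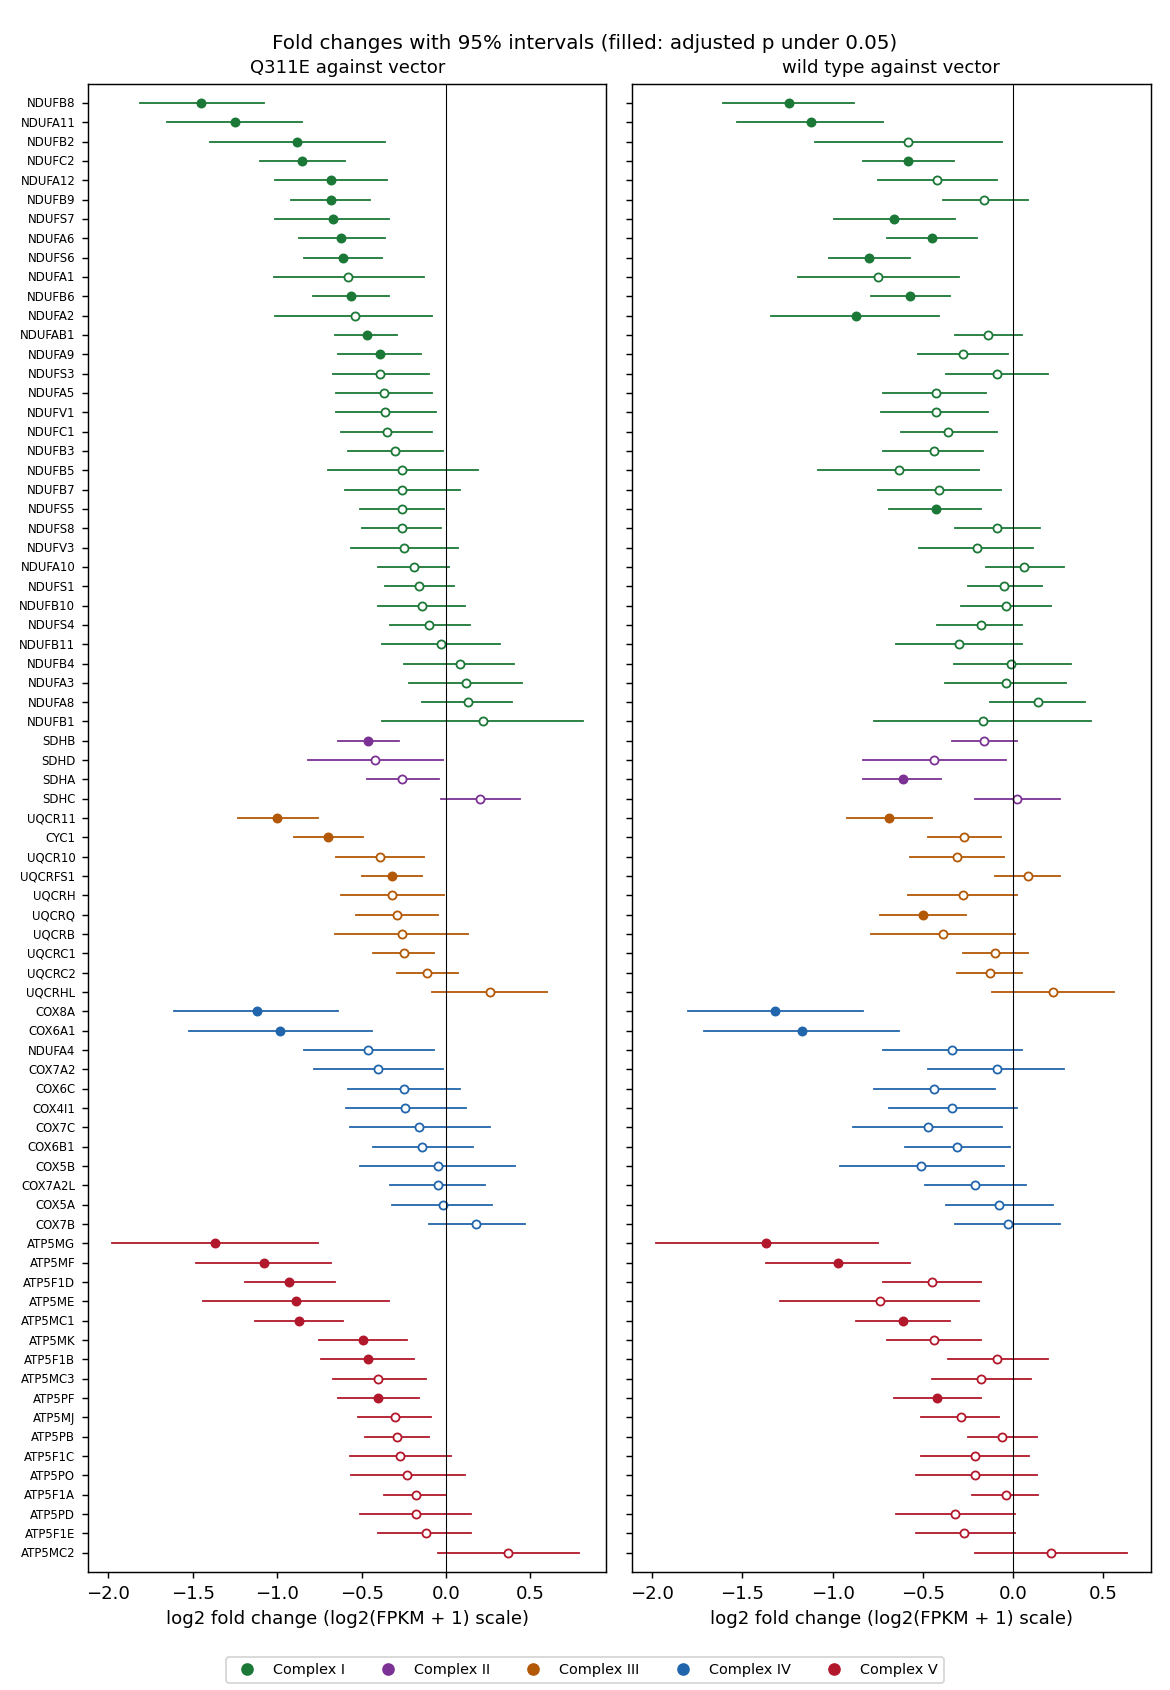
Log2 fold changes (x axis, log2(FPKM + 1) scale) of the tested members, 1 of them not shown, against vector, Q311E on the left and wild type on the right, ordered within each complex by the Q311E value; lines are 95% intervals, filled points passed the test and colours give the complex. Most points lie left of 0 in both panels, with NDUFB8 at -1.45 and -1.24 and ATP5MG at -1.37 in both.

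Complex I has a core of catalytic subunits, conserved from bacteria, which carry its flavin and iron-sulfur clusters, and a shell of accessory subunits. Of the 6 core subunits tested, NDUFS7, which holds the terminal iron-sulfur cluster, was the 1 called in either comparison with the vector. NDUFS7 had 2.94 and 4.01 FPKM in Q311E, 3.44 and 3.57 FPKM in wild type and 6.22 and 5.96 FPKM in vector libraries, so both MB21D2 lines lay below the vector (Q311E -0.67 ± 0.13, adjusted p = 0.0276; wild type -0.66 ± 0.13, adjusted p = 0.0381). The flavin-binding NDUFV1 (-0.36 ± 0.12 and -0.43 ± 0.12), the iron-sulfur subunits NDUFS1 (-0.16 ± 0.08 and -0.05 ± 0.08) and NDUFS8 (-0.26 ± 0.09 and -0.09 ± 0.09), and NDUFS3 (-0.39 ± 0.11 and -0.09 ± 0.11), of the quinone-binding module, did not pass (Q311E and wild type against vector in each case). The core subunit NDUFV2 was not tested, with 0.225 and 0.341 FPKM in Q311E, 0.146 and 0.173 FPKM in wild type and 0.122 and 0.179 FPKM in vector libraries. In GENCODE 29, 28.4% of its exon bases also belong to another gene on the same strand.

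Among the 28 accessory subunits tested, 11 fell with Q311E and 8 with wild type. These were 39.3% and 28.6%, against 9.28% and 8.76% of all genes tested. NDUFB8 (ENSG00000166136, GRCh38 chromosome 10, 100523740 to 100530000), a membrane-arm subunit often used as a marker of assembled complex I, had 2.45 and 3.01 FPKM in Q311E, 3.01 and 3.57 FPKM in wild type and 8.16 and 10.2 FPKM in vector libraries. Every library of the MB21D2 lines was below every vector library. This was the lowest fold change of any member with Q311E (-1.45 ± 0.15, adjusted p = 0.00665), and with wild type it was -1.24 ± 0.15 (adjusted p = 0.012), on 104 and 130 recovered reads in Q311E, 137 and 152 in wild type and 394 and 420 in vector libraries. NDUFA11, a membrane subunit, had 1.20 and 1.97 FPKM in Q311E, 1.77 and 1.82 FPKM in wild type and 4.81 and 5.365 FPKM in vector libraries, again without overlap (-1.25 ± 0.16, adjusted p = 0.0112, and -1.12 ± 0.16, adjusted p = 0.0181). NDUFC2 (-0.85 and -0.58), NDUFA6 (-0.62 and -0.45), NDUFS6 (-0.61 and -0.80) and NDUFB6 (-0.56 and -0.57) also fell in both lines. NDUFS6 lies near the tip of chromosome 5, where the median of its 30 neighbouring tested genes was -0.33 in wild type against vector.

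NDUFA2 (-0.87 ± 0.19, adjusted p = 0.0421) and NDUFS5 (-0.43 ± 0.10, adjusted p = 0.0492) fell with wild type and did not pass with Q311E (-0.54 ± 0.19 and -0.26 ± 0.10). NDUFS5 had the highest mean of complex I, with 264 and 266 FPKM in Q311E, 226 and 244 FPKM in wild type and 301.5 and 335 FPKM in vector libraries. NDUFB2 (-0.88), NDUFB9 (-0.68), NDUFA12 (-0.68), NDUFAB1 (-0.47), the mitochondrial acyl carrier protein, and NDUFA9 (-0.39) fell with Q311E and did not pass with wild type. Accessory subunits were not uniformly low. NDUFA8 had 102 and 119 FPKM in Q311E and 110 and 112 FPKM in wild type, against 96.9 and 105 FPKM in vector libraries, and NDUFA3, NDUFB1 and NDUFB4 also had fold changes above 0 with Q311E, none of them called. NDUFA8 lies on chromosome 9 among genes whose median fold change was 0.54 with Q311E and 0.48 with wild type, while its own fold changes were 0.13 ± 0.11 and 0.14 ± 0.11.

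Complex II oxidises succinate and is also an enzyme of the citric acid cycle. SDHB, its iron-sulfur subunit, had 43.0 and 45.0 FPKM in Q311E, 54.5 and 54.5 FPKM in wild type and 61.9 and 59.9 FPKM in vector libraries, with no overlap between the groups. It fell with Q311E against vector (-0.46 ± 0.07, adjusted p = 0.0156) and did not pass with wild type (-0.16 ± 0.07, adjusted p = 0.193). SDHA (ENSG00000073578, chromosome 5, 218241 to 256700), the flavin subunit, had another order: 2.80 and 2.71 FPKM in Q311E, 1.96 and 1.905 FPKM in wild type and 3.45 and 3.53 FPKM in vector libraries. The wild-type libraries were the lowest, and SDHA fell with wild type (-0.61 ± 0.09, adjusted p = 0.0174) but did not pass with Q311E (-0.26 ± 0.09, adjusted p = 0.0976). The median of its 30 neighbours on chromosome 5 was -0.35 with wild type and -0.02 with Q311E, and 3 pseudogenes carry its name. The membrane anchors SDHC (0.20 ± 0.09 and 0.02 ± 0.09) and SDHD (-0.42 ± 0.16 and -0.44 ± 0.16) did not pass in either line.

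Complex III hands electrons from ubiquinol to cytochrome c. UQCR11 (ENSG00000127540, chromosome 19, 1597172 to 1605490), its smallest subunit, had 10.45 and 11.9 FPKM in Q311E, 14.2 and 13.9 FPKM in wild type and 22.15 and 24.3 FPKM in vector libraries, 3 separate levels. It fell in both comparisons with the vector (-1.0 ± 0.09, adjusted p = 0.00567, and -0.69 ± 0.09, adjusted p = 0.0166). Q311E against wild type did not pass (-0.31 ± 0.09, adjusted p = 0.0594). The catalytic subunits differed. Cytochrome c1, CYC1, had 124 and 131 FPKM in Q311E, 169 and 175 FPKM in wild type and 208 and 207 FPKM in vector libraries, and fell with Q311E (-0.70 ± 0.08, adjusted p = 0.00842) without passing in wild type (-0.27 ± 0.08, adjusted p = 0.0877). The Rieske iron-sulfur protein UQCRFS1 had 35.2 and 35.5 FPKM in Q311E, 46.0 and 48.1 FPKM in wild type and 45.55 and 43.6 FPKM in vector libraries, so the wild-type line lay slightly above the vector and the Q311E line below it (-0.32 ± 0.07, adjusted p = 0.0361, with Q311E and 0.08 ± 0.07, adjusted p = 0.493, with wild type). UQCRQ, which contacts cytochrome b, fell with wild type (-0.50 ± 0.10, adjusted p = 0.0329) and was at -0.29 ± 0.10 with Q311E. The core proteins UQCRC1 (-0.25 ± 0.07 and -0.10 ± 0.07) and UQCRC2 (-0.11 ± 0.07 and -0.13 ± 0.07) did not pass.

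Complex IV has its catalytic centres in mitochondrially encoded subunits, and its nuclear members surround them. COX8A (ENSG00000176340, chromosome 11, 63974607 to 63976543), a small membrane subunit with the highest mean level of the complex, had 305.5 and 444 FPKM in Q311E and 316 and 326.5 FPKM in wild type, against 759 and 850 FPKM in vector libraries. Its Q311E mean was 53.4% and its wild-type mean 60.0% below the vector mean, and both comparisons passed (-1.12 ± 0.19, adjusted p = 0.0203, and -1.32 ± 0.19, adjusted p = 0.0188). COX6A1, the common form of subunit VIa, had 30.9 and 48.9 FPKM in Q311E, 36.1 and 32.3 FPKM in wild type and 74.4 and 81.5 FPKM in vector libraries, with the same order (-0.98 ± 0.22, adjusted p = 0.0355, and -1.17 ± 0.22, adjusted p = 0.0304). The 10 others tested were not called in any comparison. COX4I1, the common form of the regulatory subunit IV, had 55.8 and 73.85 FPKM in Q311E, 58.15 and 61.6 FPKM in wild type and 73.4 and 78.3 FPKM in vector libraries, overlapping between Q311E and vector. COX6B1 (-0.14 ± 0.12 and -0.31 ± 0.12), COX7A2 (-0.40 ± 0.15 and -0.09 ± 0.15) and NDUFA4 (-0.46 ± 0.15 and -0.34 ± 0.15) did not pass. The isoforms of restricted tissues stayed under 1 FPKM in all libraries: COX7A1, the heart and muscle form, had 0.481 and 0.316 FPKM in Q311E, 0.524 and 0.560 FPKM in wild type and 0.424 and 0.744 FPKM in vector libraries, the testis form COX6B2 at most 0.0746 FPKM and NDUFA4L2, known as a target of hypoxia signalling, at most 0.385 FPKM.

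In the ATP synthase, the F1 head makes ATP as a ring of c subunits turns in the membrane, and a peripheral stalk holds the head still. The catalytic ATP5F1B (ENSG00000110955), the most abundant member of the complex, had 407 and 464 FPKM in Q311E, 560.1 and 567.5 FPKM in wild type and 602.5 and 596 FPKM in vector libraries. It fell with Q311E (-0.46 ± 0.11, adjusted p = 0.0425) and did not pass with wild type (-0.09 ± 0.11, adjusted p = 0.61). ATP5F1D (ENSG00000099624), the delta subunit of the central stalk, had 49.4 and 59.1 FPKM in Q311E, 76.6 and 74.2 FPKM in wild type and 101 and 106 FPKM in vector libraries, 3 separate levels. It fell with Q311E (-0.93 ± 0.11, adjusted p = 0.00842), while the wild-type value missed the threshold (-0.45 ± 0.11, adjusted p = 0.0528). ATP5F1A (-0.18 ± 0.07 and -0.04 ± 0.07), ATP5F1C (-0.27 ± 0.12 and -0.21 ± 0.12) and ATP5F1E (-0.12 ± 0.11 and -0.27 ± 0.11) did not pass in either line.

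The c ring protein is encoded by 3 genes whose products differ in the import sequence that is removed. ATP5MC1 had 30.7 and 35.55 FPKM in Q311E, 38.25 and 40.9 FPKM in wild type and 58.3 and 63.9 FPKM in vector libraries and fell in both lines (-0.87 ± 0.10, adjusted p = 0.00896, and -0.61 ± 0.10, adjusted p = 0.024). ATP5MC3 was at -0.40 ± 0.11 with Q311E and -0.18 ± 0.11 with wild type, and ATP5MC2 at 0.37 ± 0.17 and 0.21 ± 0.17, none of these called. In ATP5MC2 all 4 libraries of the MB21D2 lines were above the vector: 27.0 and 37.8 FPKM in Q311E and 29.1 and 27.8 FPKM in wild type, against 22.8 and 26.3 FPKM in vector libraries. The 3 genes thus lay on both sides of 0.

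The lowest values of the complex were among its small membrane subunits, several of which hold synthase pairs together. Of the 5 tested, 4 fell with Q311E (ATP5MG, ATP5MF, ATP5ME and ATP5MK) and 2 with wild type (ATP5MG and ATP5MF). These were 80.0% and 40.0%, against 9.28% and 8.76% of all genes tested. ATP5MG had 2.25 and 4.09 FPKM in Q311E, 2.62 and 3.59 FPKM in wild type and 8.72 and 10.4 FPKM in vector libraries (-1.37 ± 0.24 in both, adjusted p = 0.0218 and 0.0278). ATP5MF had 31.9 and 43.9 FPKM in Q311E, 39.0 and 42.2 FPKM in wild type and 77.05 and 83.8 FPKM in vector libraries (-1.08 ± 0.16, adjusted p = 0.014, and -0.97 ± 0.16, adjusted p = 0.0227). In both genes the libraries of the MB21D2 lines overlapped each other and lay below the vector. In the peripheral stalk, ATP5PF fell in both lines (-0.40 ± 0.09, adjusted p = 0.042, and -0.42 ± 0.09, adjusted p = 0.0468), and ATP5PB, ATP5PD and ATP5PO were not called.

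**Figure D3:**
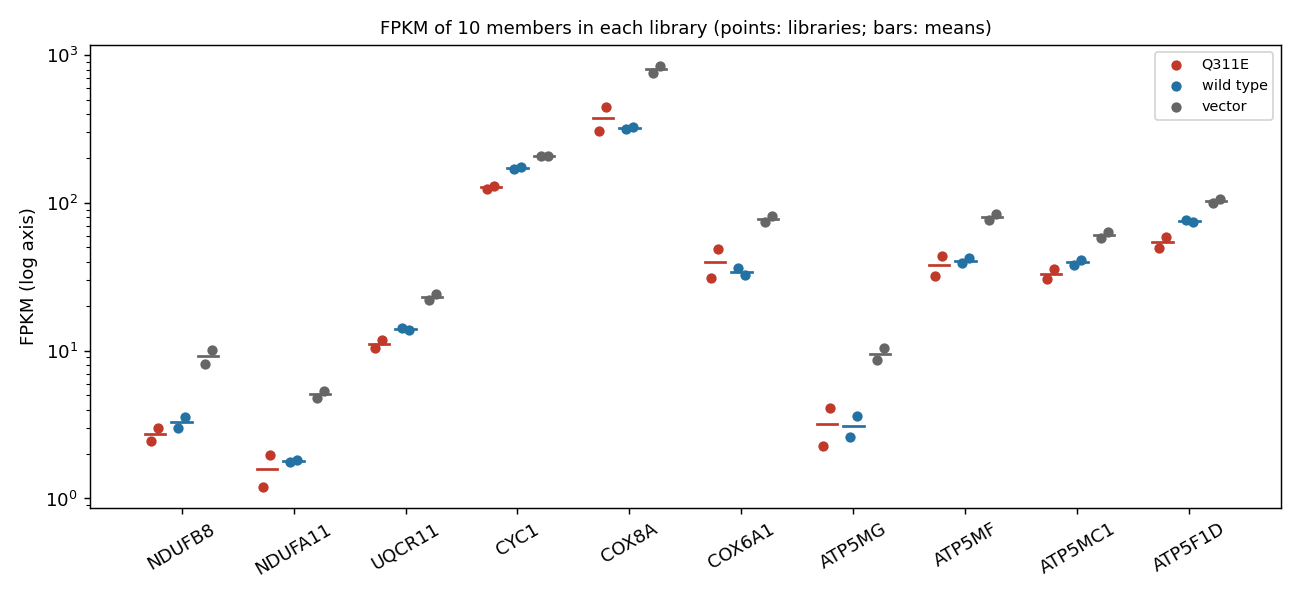
FPKM (log y axis) of 10 members, chosen after their values were seen, in each library (points) with group means (bars); Q311E, wild type and vector stand left to right within each gene. In all 10 genes the 4 libraries of the MB21D2 lines lie below both vector libraries, for example at 305.5 to 444 FPKM against 759 and 850 FPKM for COX8A.

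In Q311E against wild type, the comparison the series' design text names, 6 of 77 members fell and 1 rose, 7.8% lower against 10.1% of all genes tested and 1.3% higher against 17.5%, so the falls were near the background. The median of the members was -0.00, against 0.05 over all genes, with a range of -0.53 to 0.46. Libraries did not overlap for 22 members with Q311E lower (30.8% of all genes tested) and 16 with Q311E higher (39.3%). The falls were NDUFB9 (-0.53 ± 0.09, adjusted p = 0.017), ATP5F1D (-0.47 ± 0.11, adjusted p = 0.0304), CYC1 (-0.43 ± 0.08, adjusted p = 0.0202), UQCRFS1 (-0.40 ± 0.07, adjusted p = 0.0178), NDUFAB1 (-0.34 ± 0.07, adjusted p = 0.0276) and SDHB (-0.30 ± 0.07, adjusted p = 0.0326). All 6 were among the 12 members that fell with Q311E and not with wild type when set against the vector. Both sets of calls use the same Q311E libraries, so this overlap is not separate evidence. It was not counted over all genes. NDUFB9 had 16.5 and 19.1 FPKM in Q311E and 26.1 and 25.97 FPKM in wild type, with 28.4 and 29.95 FPKM in vector libraries, so its wild-type level lay near the vector and its Q311E level below both.

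SDHA rose (0.36 ± 0.09, adjusted p = 0.0352), and the median of its 30 neighbours in this comparison was 0.27. With libraries scaled to an equal median, SDHA was no longer called and 12 members fell and 0 rose. That was 15.6% lower, against 19.4% of all genes. By complex, the medians were -0.00 for complex I, 0.10 for complex II, -0.06 for complexes III and V and 0.18 for complex IV, none with more than 2 falls. The calls depended on single libraries. When Q311E A was left out 21 members rose and 9 fell, 11.7% lower against 27.8% of all genes, and 60.6% of all genes were called in one direction or the other. When Q311E B was left out 1 rose and 23 fell, 29.9% lower against 16% of all genes, of which 40.5% were called. In the limma fit without any 1 of the other libraries 0 members were called (of all genes, 8.44% without vector A, 8.54% without vector B and 0.0% without either wild-type library), and 4 to 9 members were lower and 0 or 1 higher at an unadjusted p under 0.05. The voom fit called 1 higher and 7 lower (9.1% lower, against 14.8% of all genes). Those same 2 fits gave medians of 0.11 (Q311E A left out) and -0.12 (Q311E B left out).

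The libraries of a group differed in the level of the members as a whole. In Q311E, 74 of 77 tested members were higher in library B than in A, with a median log2 difference of 0.23, while 45.7% of all tested genes were higher in B and their median was -0.04. In vector the count was 66, with a median of 0.13 against -0.01 over all genes, and in wild type it was 51, with 0.03 against -0.01. Relative to the vector mean, the median member stood at -0.44 in Q311E A and -0.23 in Q311E B, at -0.36 and -0.29 in wild type A and B, and at -0.07 and 0.07 in vector A and B. The distance between the Q311E libraries was thus close to that between Q311E B and the vector mean, and the order of Q311E and wild type turned with the Q311E library used.

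**Figure D4:**
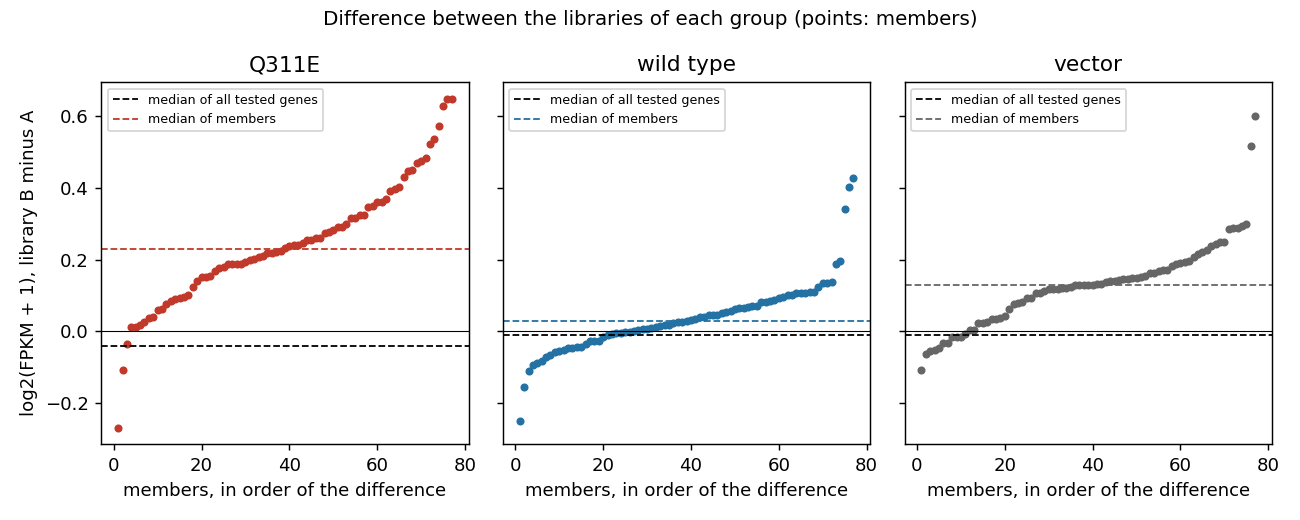
Log2(FPKM + 1) in library B minus library A (y axis) for the 77 tested members, sorted by that difference (x axis), in Q311E, wild type and vector; dashed lines are medians of the members (coloured) and of all tested genes (black). In Q311E 74 points lie above 0 and the members' median is 0.23, against 0.03 in wild type and 0.13 in vector.

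The members are short genes, with a median exon length of 2462 bases, against 4684 bases for all tested genes. Over all genes, fold changes and exon length had a Spearman correlation of 0.092 for Q311E against vector and 0.226 for wild type against vector, and over the 77 members 0.153 and 0.245. With each library's trend with length removed, 24 members fell and 0 rose with Q311E (31.2%, against 8.82% of all genes) and 11 fell and 1 rose with wild type (14.3%, against 6.18%), with medians of -0.27 and -0.21. Several of the lowest members share exon bases with another gene on the same strand in GENCODE 29, where the source of a read is uncertain and the counting rule is not given in the sources used here. COX8A shares 34.5% of its exon bases, NDUFB8 33.8%, NDUFC2 16.3%, COX6A1 13%, UQCR11 10.9%, NDUFA11 9.7%, ATP5MF 8.6% and ATP5MG 8.2%. The use of strand is not given either, and with both strands counted ATP5ME shares 61.6%, NDUFS7 49.1%, NDUFA1 44.5% and NDUFB2 35.9%. Pseudogenes in GENCODE 29 carry the name of 46 of the 84 members, and of 17 of the 30 that fell in either MB21D2 line, with 7 for ATP5MC1, 6 for ATP5MG, 5 for ATP5MF and 3 for NDUFB9; reads may be split between them and the member, and these levels are uncertain.

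Members were split on shared exon bases after the values were seen. With both strands counted, the 28 tested members with at least 10% of their exon bases shared had 14 falls with Q311E and 11 with wild type (50% and 39.3%, medians -0.46 and -0.44). The 49 with less than 10% shared had 12 and 7 falls (24.5% and 14.3%, medians -0.26 and -0.21), against 9.28% and 8.76% of all genes. On the same strand alone, the 21 tested members with shared bases had 11 and 8 falls (52.4% and 38.1%) and the 56 with none shared on that strand had 15 and 10 (26.8% and 17.9%). The named partner genes that have values were at most 0.336 FPKM beside COX8A, 0.225 FPKM beside COX6A1 and 0.00751 FPKM beside ATP5MG, while PTCD1, beside ATP5MF, had 0.648 to 0.921 FPKM. The partners of NDUFB8, NDUFA11, UQCR11 and NDUFC2 had no values to read. Since the counting rule is not given, a low partner value does not show where reads of shared bases were placed. The part of shared exons in the falls was not tested.

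**Figure D5:**
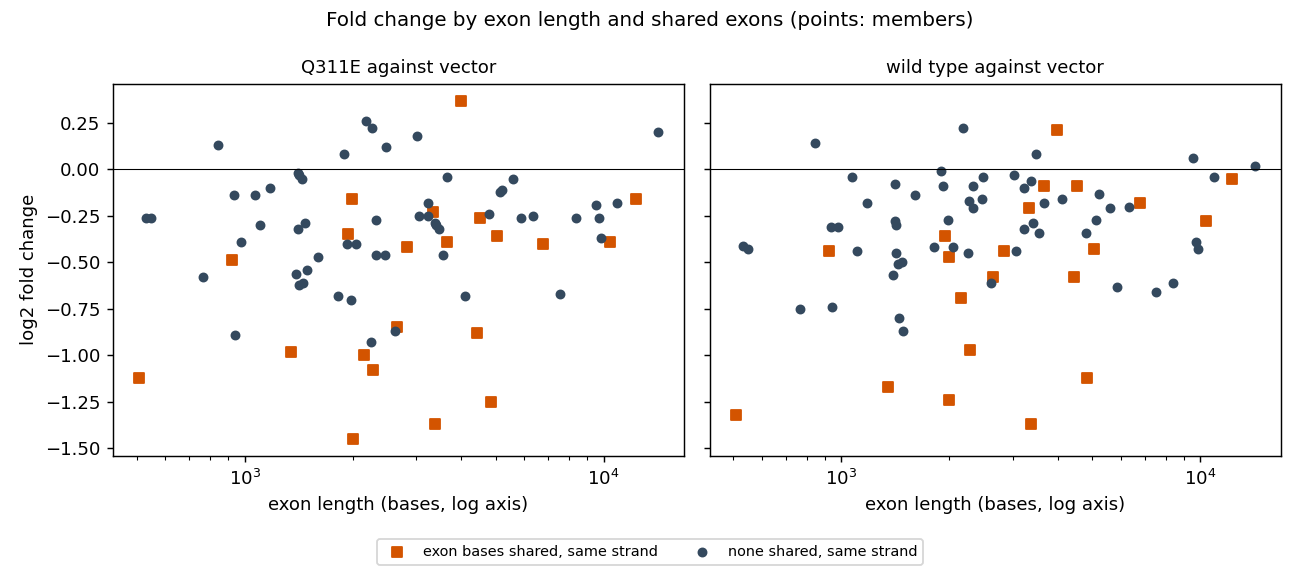
Log2 fold change (y axis) of the 77 tested members against exon length in bases (log x axis), for Q311E against vector (left) and wild type against vector (right); squares share exon bases with a gene on the same strand, circles share none on that strand. The lowest circle is ATP5F1D at -0.93 on the left and NDUFA2 at -0.87 on the right, and all points below these are squares.

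Genes that serve the respiratory chain without being its subunits were read from lists. Of 49 tested assembly factors, 14 fell and 0 rose with Q311E against vector, 7 fell and 0 rose with wild type against vector, and 11 fell and 5 rose in Q311E against wild type, with medians of -0.20, -0.19 and -0.03. These were 28.6%, 14.3% and 22.4% lower and 0.0%, 0.0% and 10.2% higher, against 9.28%, 8.76% and 10.1% lower and 8.67%, 3.54% and 17.5% higher of all genes in the same comparisons. NDUFAF8, an assembly factor of complex I, had 25.7 and 21.4 FPKM in Q311E and 33.6 and 33.4 FPKM in wild type, against 54.3 and 56.5 FPKM in vector libraries, and fell in both (-1.20 ± 0.10, adjusted p = 0.00525, and -0.71 ± 0.10, adjusted p = 0.0183). LYRM7, which matures the Rieske protein, fell by 0.87 with Q311E and by 0.60 with wild type on the log2 scale. BCS1L, which inserts the Rieske protein UQCRFS1 into complex III, had 8.61 and 9.10 FPKM in Q311E, 14.1 and 15.4 FPKM in wild type and 13.5 and 14.0 FPKM in vector libraries. BCS1L was thus lower in Q311E than in both other groups (-0.67 ± 0.08, adjusted p = 0.00778, against wild type), as its substrate UQCRFS1 was. A link between them was not tested. LYRM7 (-0.28 ± 0.10, adjusted p = 0.0915) and TTC19 (-0.16 ± 0.12, adjusted p = 0.362), also on the list, did not pass in Q311E against wild type.

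Of 16 tested regulators and carriers, 6 fell and 1 rose with Q311E against vector, 2 fell and 0 rose with wild type against vector, and 7 fell and 0 rose in Q311E against wild type (medians -0.35, 0.01 and -0.25). The shares lower were 37.5%, 12.5% and 43.8%, against the same 9.28%, 8.76% and 10.1% of all genes. In the first comparison 6.2% rose, against 8.67% of all genes. The 1 that rose was GABPB2, with 1.81 and 1.63 FPKM in Q311E, 1.51 and 1.38 FPKM in wild type and 1.02 and 1.01 FPKM in vector libraries. Cytochrome c, CYCS, the carrier between complexes III and IV, had 106 and 95.4 FPKM in Q311E, 156 and 154 FPKM in wild type and 176 and 168 FPKM in vector libraries. It fell in Q311E against vector (-0.77 ± 0.09, adjusted p = 0.00858) and against wild type (-0.62 ± 0.09, adjusted p = 0.0113), the pattern of CYC1. ATP5IF1, which inhibits the ATP synthase when it runs backwards, fell in both lines (-0.73 ± 0.13 and -1.0 ± 0.13). The coactivator PPARGC1B had 0.966 and 0.736 FPKM in Q311E, 1.76 and 1.82 FPKM in wild type and 1.72 and 1.60 FPKM in vector libraries and fell with Q311E (-0.53 ± 0.11, adjusted p = 0.0336). GABPA (0.12 ± 0.10 and -0.01 ± 0.10) and YY1 (-0.10 ± 0.09 and 0.05 ± 0.09) did not pass against the vector, and NRF1 was called in Q311E against wild type alone (-0.31 ± 0.08, adjusted p = 0.0473).

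Of 16 citric acid cycle genes, 6 fell and 0 rose with Q311E against vector, 1 fell and 1 rose with wild type against vector, and 6 fell and 2 rose in Q311E against wild type (medians -0.15, -0.04 and -0.22). The shares lower were 37.5%, 6.2% and 37.5%, against 9.28%, 8.76% and 10.1% of all genes, and 12.5% rose in the last comparison, against 17.5% of all genes. IDH3B, a subunit of the NAD-dependent isocitrate dehydrogenase, had 39.6 and 42.0 FPKM in Q311E, 61.8 and 64.4 FPKM in wild type and 63.6 and 66.0 FPKM in vector libraries. It fell in Q311E against vector (-0.65 ± 0.08, adjusted p = 0.00842) and against wild type (-0.62 ± 0.08, adjusted p = 0.00816). Of the 13 mitochondrially encoded subunits, limma called 0 in each comparison, with 0 at an unadjusted p under 0.05 and 0 by voom, and medians of 0.01, 0.18 and -0.15. The Q311E libraries and the vector libraries were far apart and the wild-type ones close, as in MT-CO1, the catalytic subunit of complex IV, with 2150 and 3370 FPKM in Q311E, 2650 and 2490 FPKM in wild type and 1470 and 3070 FPKM in vector libraries, higher in B than in A for Q311E and vector like the nuclear members.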

How the data were processed

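The deposited values are FPKM, made by the authors and named so by the file itself, for 30178 human Ensembl gene IDs. Per the labels' protocols, RNA came from a QIAGEN extraction and went into standard Illumina libraries. The submitters' processing notes name CASAVA and 2 mouse builds, mm8 and mm9, without giving them a role. The sources used here name no aligner, counter, annotation or use of strand.

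Names were matched for 29993 IDs, and gene types, positions and exon lengths came from GENCODE 29 (GRCh38). Reads were recovered from the steps of the FPKM values, within 0.001 of a whole number, for 99.51% of genes. This held at the GENCODE 29 exon length for 22361 genes, and other lengths were searched where it did not. Library totals ran from 20645410 to 24147306 reads. The recovered reads summed to slightly more than the total in every library, as in vector A (24177998 against 24147306).

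The test, on log2(FPKM + 1), was limma (version 3.58.1, run under R 4.3.3) for 11481 genes with a mean of at least 1 FPKM. The 3 groups shared 1 fit with a variance trend and 3 residual degrees of freedom. Calls are two-sided, at a Benjamini-Hochberg adjusted p under 0.05 over all genes, and every adjusted p in the text comes from this fit unless another is named. Levels are given per library, errors of fold changes are SEs, and no table of counts was used. Python 3.11.15, numpy 2.4.6, pandas 2.3.3, scipy 1.17.1 and matplotlib 3.10.9 did the rest. Promoters are RefSeq's.

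Members, lists and the motifs were chosen with earlier results of these data known. The rule for named genes took, per comparison, the 5 members called in each direction with the largest fold changes and no overlap of libraries, the core subunits, the tissue isoforms with their common partners, the most abundant member of each complex and up to 3 called members of each other list. The values of 1 member are not reported here, though counts and medians include it. Other members described were chosen after their values were seen. Q311E and wild type were set against the same vector libraries.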

Additional observations from a re-analysis of the deposited data

How the results depend on the processing

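The counts of called members moved with the fit more than the medians did, and the cause was not tested. Without a filter on low values, which brought in the 7 members not otherwise tested, 14 members were called in Q311E against vector, 3 in wild type against vector and 2 in Q311E against wild type, with 4.01%, 1.3% and 5.33% of all genes called. Fitting only the 2 groups compared gave 2, 50 and 0 calls in that order, against 2.28%, 45.9% and 8.47% of all genes (limma; 1 higher and 9 lower at an unadjusted p under 0.05 in the last), and group weights, which let the spread of each group differ, gave 14, 52 and 4, against 7.56%, 48% and 17.4% of all genes. In Q311E against wild type, scaling to equal medians gave 12 calls and removing the length trend 15, of which 14 were lower. Of all genes, 32.3% and 30.4% were called in these 2 fits. Leaving out 1 library at a time gave 0 to 59 calls in Q311E against vector, 0 to 50 in wild type against vector and 0 to 30 in Q311E against wild type; a group's lone library is then assumed to vary like the other groups. The median of wild type against vector was -0.21 with the length trend removed, and the other alternatives run moved no median by more than the larger SD of the library medians in the groups compared, which was 0.155 in Q311E and 0.096 in vector (0.037 in wild type), and none turned the direction of a called member named by the rule. NDUFB8 and UQCR11 were called in both comparisons with the vector under all 11 alternatives that keep every library, and SDHA was called in Q311E against wild type under 3 of 10.

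With the replicate letter as a replicate block, 26, 21 and 6 members were called in the 3 comparisons, all of them lower. These were 33.8%, 27.3% and 7.8% of the members, against 16.9%, 11.3% and 28.4% of all genes called in either direction. The letters are not stated to pair libraries, and the A minus B differences over all genes correlated at 0.387 between Q311E and vector but at -0.0255 between wild type and vector and -0.00613 between Q311E and wild type. Of the 19 alternatives planned 18 were run; edgeR on recovered reads was not run, since the deposited unit is FPKM, and voom on those reads was. With 2 libraries in each group, members that missed the threshold are not shown to be alike between groups.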
